A study of Homo sapiens with 2 samples.

Results

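The genes described here are the 7 core binding factor and ETO family genes that surround the RUNX1-RUNX1T1 fusion: RUNX1, RUNX2 and RUNX3, CBFB, RUNX1T1, CBFA2T2 and CBFA2T3. They were chosen by name, and their loci were placed with the GENCODE v44 annotation lifted to hg19. They are 7 of the 36040 annotated genes that had at least 1 CpG cytosine measured in both libraries near a transcript start. DNA methylation was measured by MCC-Seq, a bisulfite sequencing method in which converted DNA is captured with probes, in SKNO-1 and in SKNO1-siAE, with 1 library of each line.

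SKNO-1 is an acute myeloid leukaemia cell line that carries the t(8;21) translocation and its fusion transcript, and SKNO1-siAE is the line made from it by infection with the lentiviral vector pRRLcPPT.hPGK, which encodes small interfering oligonucleotides against the fusion site. Both lines therefore share the SKNO-1 background and the translocation, were grown in the same medium, and differ in the vector and in the silencing it was designed for. No line with an empty vector was analysed here, and the sources used here do not say whether SKNO1-siAE is a clone or a pool. The effects of the silencing, the vector, culture and library preparation cannot be told apart with 1 library per line. The fusion transcript itself was not measured by these data, and the reads do not separate the normal from the rearranged copies of RUNX1 and RUNX1T1.

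Core binding factor is a transcription factor of a DNA-binding alpha subunit, encoded by RUNX1, RUNX2 or RUNX3, and a beta subunit, encoded by CBFB, which binds no DNA itself and strengthens the binding of its partner. Each RUNX gene is transcribed from a distal promoter, P1, and a proximal promoter, P2, whose proteins differ at the N terminus. RUNX1 is required for definitive blood formation, RUNX2 for bone, and RUNX3 acts in T cells and neurons. RUNX1T1 (ETO), CBFA2T2 (MTGR1) and CBFA2T3 (MTG16, ETO2) encode corepressors that bind no DNA directly and recruit histone deacetylase complexes, and the fusion joins the DNA-binding domain of RUNX1 to most of RUNX1T1.

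The 6 stretches of genomic sequence shown here carried the differences described later, and are the longest runs of called sites outside exons at each place. They are given 5′ to 3′ on the strand of the gene, from hg19, with every CpG in capitals. The first lies in the RUNX1 P1 window (chr21:36421939-36422115, minus strand, 6 CpGs), the second upstream of RUNX1 P2 (chr21:36263624-36263888, minus strand, 17 CpGs) and the third upstream of RUNX2 P2 (chr6:45387229-45387458, plus strand, 17 CpGs). The other stretches are from CBFA2T3, all on the minus strand: upstream of the start of transcript CBFA2T3-201 (chr16:89044501-89044713, 12 CpGs), upstream of the start of CBFA2T3-209 (chr16:89008365-89008469, 16 CpGs), and within an intron (chr16:88988145-88988443, 19 CpGs).
RUNX1 P1 upstream: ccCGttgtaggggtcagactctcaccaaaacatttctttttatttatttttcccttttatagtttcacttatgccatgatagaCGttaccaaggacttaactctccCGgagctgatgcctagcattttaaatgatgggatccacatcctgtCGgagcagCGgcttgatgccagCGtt
RUNX1 P2 upstream: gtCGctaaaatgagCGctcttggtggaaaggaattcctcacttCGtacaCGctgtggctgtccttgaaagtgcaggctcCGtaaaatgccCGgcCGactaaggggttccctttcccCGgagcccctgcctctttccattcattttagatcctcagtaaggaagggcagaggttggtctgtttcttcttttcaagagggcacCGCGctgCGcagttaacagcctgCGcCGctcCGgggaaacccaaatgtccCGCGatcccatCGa
RUNX2 P2 upstream: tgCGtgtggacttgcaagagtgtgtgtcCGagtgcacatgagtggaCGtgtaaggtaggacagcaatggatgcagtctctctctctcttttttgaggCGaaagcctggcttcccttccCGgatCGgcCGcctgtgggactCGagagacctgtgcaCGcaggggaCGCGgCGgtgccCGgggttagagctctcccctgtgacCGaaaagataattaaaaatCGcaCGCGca
CBFA2T3-201 upstream: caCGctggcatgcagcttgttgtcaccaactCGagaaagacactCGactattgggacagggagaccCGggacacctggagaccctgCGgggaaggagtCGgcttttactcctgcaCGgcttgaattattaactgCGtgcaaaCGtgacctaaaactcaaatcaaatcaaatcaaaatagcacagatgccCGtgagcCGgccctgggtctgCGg
CBFA2T3-209 upstream: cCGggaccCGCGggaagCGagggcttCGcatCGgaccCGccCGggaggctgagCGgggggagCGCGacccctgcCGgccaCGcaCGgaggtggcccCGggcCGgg
CBFA2T3 intron: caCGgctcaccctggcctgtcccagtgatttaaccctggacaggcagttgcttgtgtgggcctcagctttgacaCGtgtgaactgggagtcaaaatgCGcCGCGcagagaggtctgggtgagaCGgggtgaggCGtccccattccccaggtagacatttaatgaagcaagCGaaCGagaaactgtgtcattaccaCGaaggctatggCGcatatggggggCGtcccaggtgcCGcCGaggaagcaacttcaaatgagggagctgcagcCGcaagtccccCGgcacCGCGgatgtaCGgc

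The methylation level of a site is the fraction of its reads that were methylated, where a site is the cytosine of a CpG on 1 strand with at least 5 reads in both libraries. There were 3168726 such shared sites, which averaged 0.587 methylated in SKNO-1 and 0.655 in SKNO1-siAE at a median depth of 16 and 15 reads. Differences are given as SKNO-1 relative to SKNO1-siAE. On the mitochondrial genome, 0.352% and 0.378% of reads were called methylated. As a check of the label, the promoters of 8 blood cell genes had median levels of 0.266 and 0.270, and those of 8 genes of other tissues 0.805 and 0.889. The ranges overlapped, at 0 to 0.389 in SKNO-1 and 0 to 0.779 in SKNO1-siAE for the blood genes, and at 0.251 to 0.879 and 0.562 to 0.975 for the others. Of the 16 genes, LAPTM5 (0.383 and 0.779) and INS (0.251 and 0.562) were lower in SKNO-1 by 0.2 or more, and CORO1A (0.389 and 0.0840) was higher. Expression was not measured.

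The 39 promoter windows of the 7 genes, from 1500 bp upstream to 500 bp downstream of each transcript start with overlapping windows joined, included 20 with at least 5 shared sites, and 18 had none. A window was called at a mean difference of at least 0.2 in size. Of the 20 windows, 2 were called higher in SKNO-1, CBFA2T3-201 and RUNX1T1-229, and 2 were called lower, CBFA2T3-209 and RUNX1 P1. Over the windows of all genes 3.61% were called higher and 15.2% lower. With the member windows ended at the start, RUNX1T1-229 lost its call, and RUNX1T1-213 and RUNX1T1-234 were called lower. The median difference of the 20 windows was −0.00595, and that of all genes was −0.0144. Under some alternatives, given later, the median of the member windows was below −0.0144, so the order of these medians was not stable. Another 4 windows were under 0.1 in both libraries (RUNX1 P2, RUNX2 P2, CBFB-202 and CBFA2T2-201), and 5 were over 0.9 in both (RUNX2 P1, RUNX3 P1, CBFA2T2-202, CBFA2T3-208 and CBFA2T3-203).

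RUNX1, the alpha subunit that takes part in the fusion, spans chr21:36160098-37376965 on the minus strand. Its P2 window (chr21:36258980-36263587, 94 sites) was unmethylated in both lines, at 0.00488 in SKNO-1 and 0.00638 in SKNO1-siAE, and 92 of the 94 sites had no methylated read in SKNO-1. The P1 window (chr21:36421067-36423141, 25 sites), which holds the start of the MANE Select transcript RUNX1-218, averaged 0.00657 in SKNO-1 and 0.255 in SKNO1-siAE. Pooled over its reads, the level was 0.00708 in SKNO-1 (95% Wilson interval 0.00396 to 0.0126, 1553 reads) and 0.255 in SKNO1-siAE (0.233 to 0.279, 1352 reads). Such intervals cover counting error only, and neighbouring sites share reads, so they are too narrow. At RUNX1 P1 the intervals of the 2 libraries did not overlap, and at P2 both were near 0.

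The P1 difference lay in 11 sites from 514 to 342 bp upstream of the start, the stretch shown first among the sequences. These sites ranged from 0 to 0.0263 in SKNO-1 and from 0.286 to 1 in SKNO1-siAE, so the ranges did not overlap. Their means were 0.00633 and 0.579. In contrast, the other 14 sites, from 259 bp upstream to 166 bp downstream, had means of 0.00676 and 0, with no methylated read in SKNO1-siAE. The site with the smallest p, at position 36421955, had 0 methylated of 109 reads in SKNO-1 and 63 of 112 in SKNO1-siAE (Fisher's exact test, adjusted p = 7.86e-22). Both strands showed the difference, with SKNO1-siAE levels of 0.539 on the plus and 0.535 on the minus strand over 5 CpGs measured on both. With the window ended at the start, the difference was −0.419, beside −0.248 for the whole window. A far upstream start, RUNX1-214, also encodes the P1 N terminus, but its window had 0 shared sites.

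Upstream of the P2 window, the next 2500 bp held 30 sites with mean levels of 0.0733 in SKNO-1 and 0.575 in SKNO1-siAE. In the stretch shown from there, 27 sites had a level of 0 in SKNO-1 and a mean of 0.530 in SKNO1-siAE. The strands were unlike in SKNO1-siAE: over 10 CpGs measured on both strands, the plus strand was at 0.0667 and the minus strand at 0.717, while both were at 0 in SKNO-1. At the 9 of these CpGs nearest to the window, the plus strand of SKNO1-siAE had 6 reads each.

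RUNX2, the alpha subunit of bone, spans chr6:45295894-45632086 on the plus strand and had a methylated P1 and an unmethylated P2. P1 (chr6:45294394-45296964, 14 sites) was methylated in both lines, at 0.934 and 0.998. P2 (chr6:45388273-45390814, 111 sites) was unmethylated, at 0.00610 and 0.000541, and none of its sites was called. Beyond its upstream edge, 41 sites in 2500 bp had means of 0.104 and 0.692, and 34 of them were called lower. This difference formed a called region, from 3419 to 2272 bp upstream of the start of RUNX2-201 (chr6:45386803-45387950, 40 sites), with mean levels of 0.0821 and 0.685. The sites between 2000 and 1501 bp upstream were at 0.0136 and 0.00207, so the change from methylated to unmethylated in SKNO1-siAE lay between them.

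The rule for these upstream flanks was added after their values had been seen. Of the 4 member windows under 0.1 in both libraries, RUNX1 P2 and RUNX2 P2 had at least 5 sites in the flank, and both flanks were lower in SKNO-1 by at least 0.2. Among 2380 protein-coding windows of that kind with a measured flank, 9.75% of flanks were lower and 4.41% higher. The flanks of CBFB-202 and CBFA2T2-201 had 0 shared sites.

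RUNX3, the third alpha subunit, spans chr1:25226002-25291612 on the minus strand, and neither of its promoters was called. The P1 window (chr1:25291001-25293112, 73 sites) was methylated, at 0.901 and 0.941. The P2 window (chr1:25254789-25258267, 232 sites) had a mean of 0.524 in SKNO-1 and 0.534 in SKNO1-siAE, and 3 of its sites were called in each direction. That intermediate mean came from 2 unlike parts: the 33 sites of the 500 bp after the start were at 0 in both lines, and the 78 sites from 1500 to 1001 bp upstream were at 0.980 and 0.979. Further upstream, from 2500 to 2001 bp, 17 sites averaged 0.203 in SKNO-1 and 0.634 in SKNO1-siAE, and 7 of them were called lower. RUNX3 P2, unlike RUNX1 P2 and RUNX2 P2, thus had methylated DNA within its window in both lines.

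**Figure D1:**
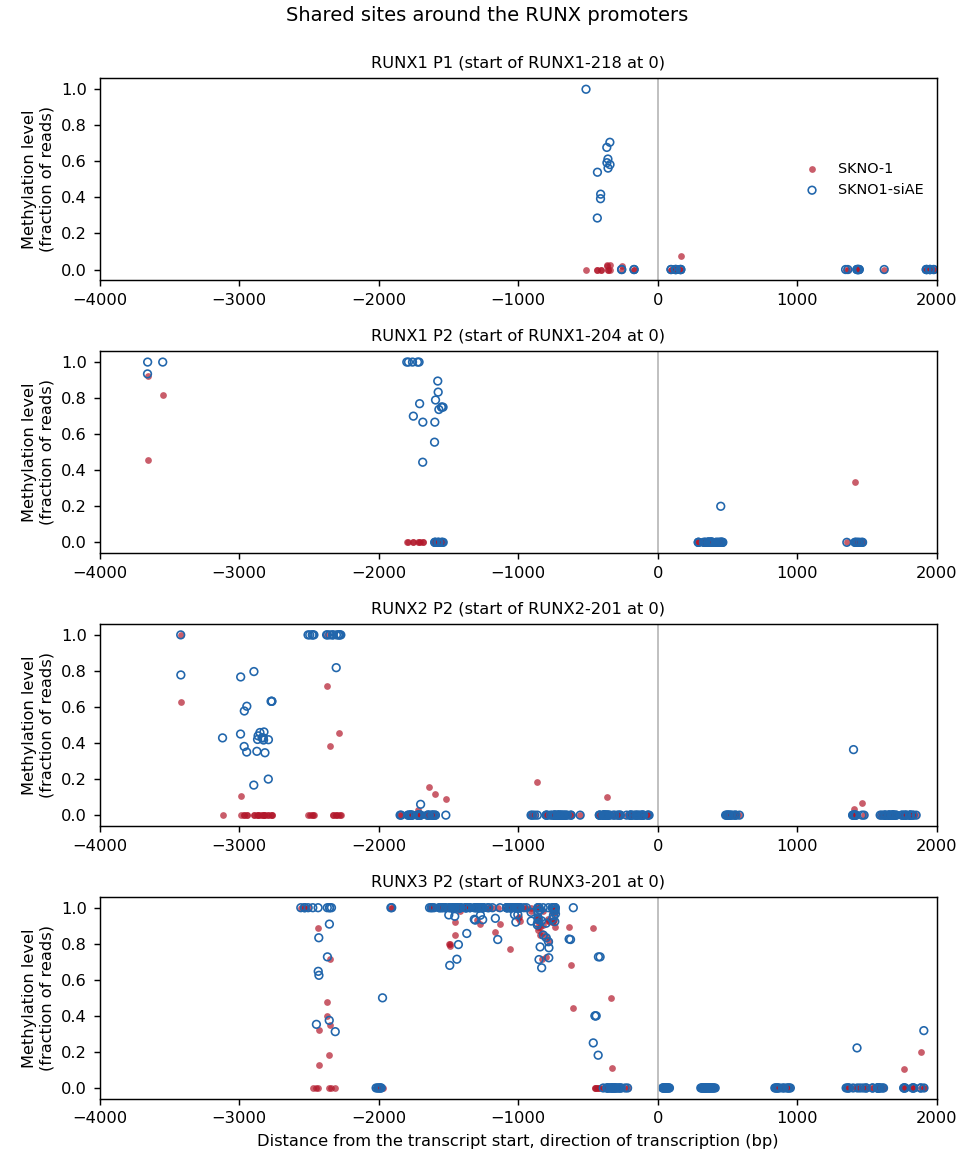
Methylation level (y axis, fraction of reads) of every shared site by its distance in bp from the transcript start (x axis), for 4 RUNX promoters, in SKNO-1 (filled) and SKNO1-siAE (open). The sites at the starts are at or near 0 in both lines, and the lines part upstream, as in the 11 sites of RUNX1 P1.

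CBFB, which encodes the beta subunit, spans chr16:67062887-67134961 on the plus strand, and its promoter was low in both lines. Its main window, CBFB-202 (chr16:67061387-67063864, 73 sites, 9 transcript starts), had mean levels of 0.0486 in SKNO-1 and 0.0316 in SKNO1-siAE. In the 500 bp before the start, 49 sites were at 0.000887 and 0.0136. The 9 sites from 1000 to 501 bp upstream were at 0.389 and 0.182, and 2 sites of the window were called higher. None of 61 gene body sites of CBFB was called.

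RUNX1T1, the fusion partner on chromosome 8, spans chr8:92967200-93115514 on the minus strand, and its windows were methylated in part. The window with most of its starts, RUNX1T1-220 (28 transcript starts, 17 of them coding, 36 sites), had mean levels of 0.575 in SKNO-1 and 0.486 in SKNO1-siAE and was not called. Its direction was not stable, since the difference of 0.0892 became −0.00296 with pooled reads and −0.141 over the 9 sites of like depth. The strands differed there in SKNO1-siAE. Over 9 CpGs measured on both, the plus strand was at 0.991 and the minus strand at 0.213, against 0.796 and 0.889 in SKNO-1. The most CpG-rich window, RUNX1T1-213 (chr8:93114635-93117014, 82 sites), was at 0.740 and 0.916, under the size needed for a call, and 20 of its sites were called lower. With the window ended at the start it was past that size, at −0.290 over 33 sites, and with coding starts only at −0.202 over 64. Its difference was widest in the 500 bp before the start, where 22 sites were at 0.472 and 0.838.

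Near the exon where RUNX1T1 enters the fusion transcript, few sites were measured. The oligonucleotide against the fusion site has 21 bases, of which 7 match the end of exon 6 of RUNX1-218 and 14 match RUNX1T1 from position 93029591. The window RUNX1T1-229, which holds that exon start, was called higher, at 0.816 and 0.561 over 7 sites. Only 2 of these sites were called, at a mean of 0.741 in SKNO-1 and 0 in SKNO1-siAE. Both lie in that exon (chr8:93029454-93029591), and the one with the smaller p, at position 93029589, had 19 methylated of 27 reads in SKNO-1 and 0 of 28 in SKNO1-siAE (Fisher's exact test, adjusted p = 2.88e-07). When reads were pooled, the window difference was 0.104, and with the window ended at the start it was 0.0619 over 5 sites. Both are under the size of a call. RUNX1T1-230 (40 sites) was methylated, at 0.916 and 0.894. RUNX1T1-235 (8 sites) was at 0.577 and 0.385 and RUNX1T1-234 (16 sites) at 0.351 and 0.540, both just short of a call. Over the 4 CpGs of RUNX1T1-235, all measured on both strands, the plus strand was at 0.454 and 0.458. The minus strand was at 0.701 and 0.311. RUNX1T1-235 passed its size under 2 alternatives, at 0.218 and 0.285, and RUNX1T1-234 under 4, at −0.219 to −0.289. RUNX1T1-243 had only 4 sites, at 0 and 0.515, too few for a call.

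**Figure D2:**
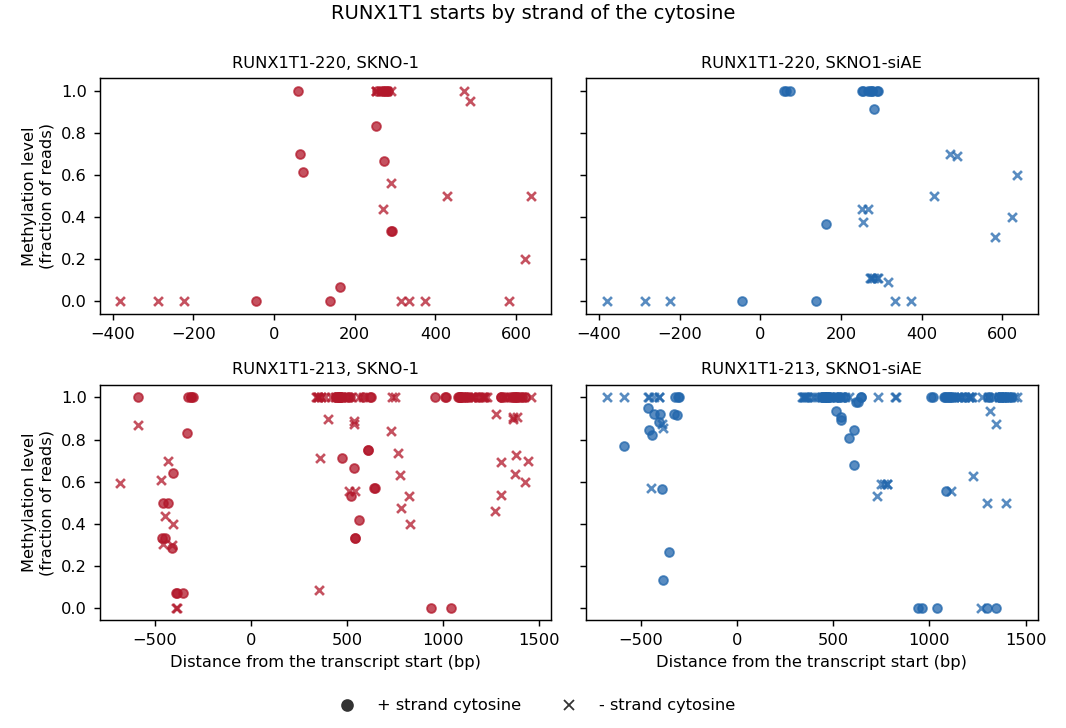
Methylation level (y axis, fraction of reads) of shared sites near 2 RUNX1T1 starts by distance in bp (x axis), with cytosines of the plus strand as circles and of the minus strand as crosses, SKNO-1 on the left and SKNO1-siAE on the right. At RUNX1T1-220 the 2 strands of the same CpGs part in SKNO1-siAE, at 0.991 and 0.213.

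CBFA2T2 spans chr20:32077881-32237842 on the plus strand, and neither of its measured windows was called. CBFA2T2-201 (chr20:32076381-32078423, 87 sites), with the MANE Select start, was unmethylated at the shared sites, at 0.00155 in SKNO-1 and 0.0225 in SKNO1-siAE. Over each library's own sites, its difference was −0.147, under the size of a call. CBFA2T2-202 (13 sites) was methylated, at 0.907 and 0.971. Between these levels lay a tile (chr20:32078592-32078802, 15 sites) centred 0.795 kb downstream of the first start, at 0.244 and 0.489.

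CBFA2T3 spans chr16:88941266-89043615 on the minus strand and held windows called in both directions. Its reads were unequal: relative to the ratio over all shared sites, SKNO-1 had 1.65 times the reads of SKNO1-siAE over the gene body. The part of that difference in read number in the results for CBFA2T3 was not tested. At CBFA2T3-209 (chr16:89007106-89009752, 59 sites, 4 coding starts), the sites averaged 0.176 in SKNO-1 and 0.951 in SKNO1-siAE. Pooled over reads, it was 0.186 (95% Wilson interval 0.159 to 0.216, 714 reads) and 0.922 (0.897 to 0.942, 551 reads). There the relative read ratio was 1.27. When each library had to have 10 reads, 12 sites remained and the difference was −0.457, beside −0.775 over all 59.

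In that window 44 of 59 sites were called lower, and each of the 44 was at 0 in SKNO-1 and at 1 in SKNO1-siAE, with 5 to 19 reads in SKNO-1 and 5 to 14 in SKNO1-siAE. For 42 of them the cytosine on the other strand of the CpG was not among the shared sites, and for the remaining 2 it was fully methylated in both lines. Over the 6 CpGs measured on both strands, the plus strand was at 0.5 and the minus strand at 0.756 in SKNO-1, and at 0.813 and 0.801 in SKNO1-siAE. The smallest p was shared by 4 sites with the same counts, and the first of them, at position 89007475, had 0 methylated of 19 reads against 12 of 12 (Fisher's exact test, adjusted p = 2.61e-07). The stretch shown for CBFA2T3-209 held 16 sites, all on the plus strand, at 0.0208 and 0.973, and a called region downstream of the start (chr16:89007379-89007545, 29 sites, all on the minus strand) was at 0.0181 and 0.994. That region overlaps exons of CBFA2T3-202 and CBFA2T3-207 and a gene on the opposite strand, ENSG00000205018.

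At CBFA2T3-201 (chr16:89042988-89045115, 48 sites), the window of the MANE Select start, the order was the opposite. Its sites averaged 0.375 in SKNO-1 and 0.0259 in SKNO1-siAE, or 0.375 (0.339 to 0.412, 683 reads) and 0.0161 (0.00877 to 0.0294, 621 reads) pooled over reads. The difference lay in a called region from 1194 to 858 bp upstream (chr16:89044473-89044809, 29 sites), at 0.612 and 0.0429. Its plus and minus strands were at 0.605 and 0.621 in SKNO-1 and at 0.0778 and 0 in SKNO1-siAE. The site with the smallest p, at position 89044615, had 11 methylated of 13 reads in SKNO-1 and 0 of 35 in SKNO1-siAE (Fisher's exact test, adjusted p = 1.37e-07). The 16 sites in the 500 bp after the start were at 0.0156 and 0, low in both lines. When only sites of like depth were used, this window's difference was 0.173 over 9 sites, under the size of a call.

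The start between them, CBFA2T3-211 (chr16:89023683-89025683, 35 sites), was not called, at 0.420 and 0.351. Pooled over 622 and 312 reads it was at 0.145 and 0.321, so that the direction turned, and over the 8 sites with like depths the difference was 0.204, past the size of a call. Just downstream, from 549 to 905 bp, a called region (chr16:89023278-89023634, 27 sites) was at 0.00632 and 0.845. The windows CBFA2T3-203 (62 sites) and CBFA2T3-208 (10 sites) were methylated in both lines, at 0.961 and 0.939, and at 0.957 and 0.988. Methylation at CBFA2T3 was thus higher in SKNO-1 upstream of the MANE Select start, and lower around CBFA2T3-209 and downstream of CBFA2T3-211.

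**Figure D3:**
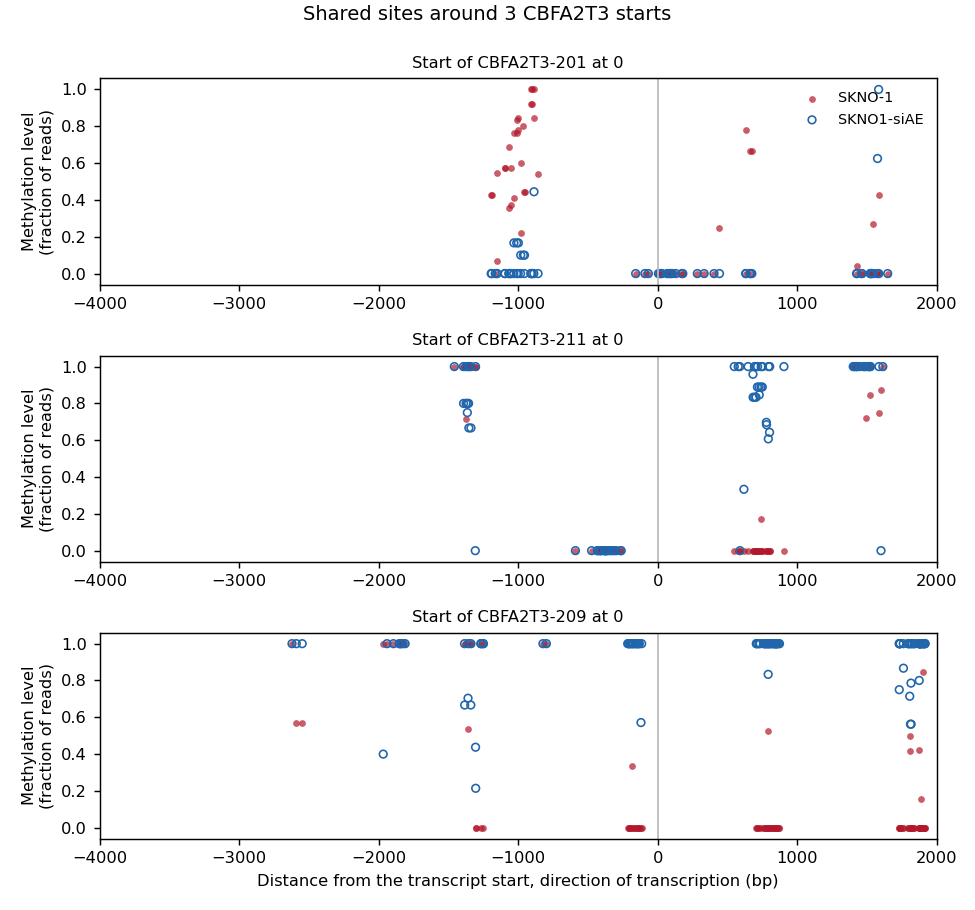
Methylation level (y axis, fraction of reads) of shared sites by distance in bp from 3 CBFA2T3 starts (x axis), in SKNO-1 (filled) and SKNO1-siAE (open). SKNO-1 is higher about 1000 bp upstream of CBFA2T3-201, and SKNO1-siAE is higher on both sides of CBFA2T3-209.

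A further 2 called regions of CBFA2T3 lay in the body. The intron stretch shown last among the sequences contains a region (chr16:88988147-88988441, 37 sites) at 0.0135 in SKNO-1 and 0.944 in SKNO1-siAE, with both strands alike. The other (chr16:89006335-89006521, 36 sites), which overlaps an exon of ENSG00000205018 on the opposite strand, was at 0.0649 and 0.946. In all, 6 regions were called in the 7 loci, 5 of them lower and 1 higher, and 5 of the 6 were in CBFA2T3. CBFA2T3 also had the most shared sites of the 7 loci, with 1324 of the 2945 in the gene bodies. The higher region, upstream of CBFA2T3-201, was not called with at least 10 reads per site, nor without smoothing. The lower region at CBFA2T3-209 was not called with at least 10 reads, and without smoothing the one upstream of RUNX2 P2 and the one overlapping the exon of ENSG00000205018 in the body were not, which left 4 and 3 of the 5 lower regions. Over all candidate regions 4.77% were called lower and 1.05% higher, and 9.73% of protein-coding gene loci held a region called lower and 2.54% one called higher. With 1 test per shared site in the adjustment, no region of fewer than 22 sites could be called.

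Outside the windows, the mean levels of the gene bodies ranged from low in CBFB to high in RUNX3, and none differed by 0.2 or more. For bodies of all protein-coding genes, 10.9% were lower and 2.74% higher by that much. RUNX3 (438 sites) was at 0.923 and 0.939, CBFA2T2 (101 sites) at 0.828 and 0.829, RUNX2 (506 sites) at 0.566 and 0.606, RUNX1T1 (105 sites) at 0.679 and 0.745, and CBFB (61 sites) at 0.276 and 0.258. The widest differences were in RUNX1 (410 sites), at 0.461 and 0.603, and in CBFA2T3 (1324 sites), at 0.815 and 0.918.

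Over the windows and bodies together, 431 of 4074 member sites (10.6%) were called lower and 125 (3.07%) higher, where Fisher's exact test called 11.7% and 4.4% of all shared sites. The shares over the members were thus close to those of the genome. Among the bodies, the share of sites called lower ran from 0 of 61 in CBFB and 12 of 438 (2.74%) in RUNX3 to 83 of 410 (20.2%) in RUNX1, which had 10 sites called higher. Of those 83 RUNX1 sites, 50 lay upstream of P1. CBFA2T3 had 169 of 1324 (12.8%) lower and 30 higher. All 169 were intronic, 15.4% of 1099, and none of 225 exonic sites was lower, where 11.5% of intronic and 8.52% of exonic body sites were over all protein-coding genes. Of the 30 higher sites, 28 were intronic (2.55%) and 2 exonic (0.889%), beside 4.93% and 3.83% over all genes. The CBFA2T3 exons were at 0.968 and 0.952, and its introns at 0.784 and 0.911. The relative read ratio was 2.20 in those exons and 1.53 in the introns, and its part in the counts was not tested.

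The RUNX1 body was uneven along its length. Upstream of P1, 166 sites were at 0.603 and 0.811, and 50 of them (30.1%) were lower. Between P1 and P2, 145 sites were at 0.176 and 0.263, and 17 of the 18 lower sites lay in the P2 flank, the 2500 bp upstream of its window. The other 115 sites of that interval were at 0.203 and 0.182, with 1 called lower and 3 higher. From P2 to the exon that enters the fusion, 19 sites were at 0.00297 and 0.0123, and 3′ of that exon 80 sites were at 0.790 and 0.928. In RUNX2, the interval between the promoters was at 0.199 and 0.323 over 176 sites, and 34 of its 36 lower sites lay in the P2 flank. Without the flank, 135 sites were at 0.228 and 0.211, and the part downstream of P2 was at 0.762 and 0.756 over 330 sites. RUNX3 was at 0.697 and 0.826 between the promoters over 61 sites, with 8 of 9 lower sites in the P2 flank, and the 23 sites outside the flank were at 0.960 and 0.962. Downstream of P2, its 377 sites were at 0.960 and 0.957. In all 3 genes, the lower mean between the promoters in SKNO-1 was thus within the P2 flank, and outside it the means of the lines differed by 0.0209 or less.

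In tiles of 500 bp with at least 5 shared sites, 29 of 172 body tiles (16.9%) were lower by at least 0.2 and 6 (3.49%) higher, beside 15.4% and 4.76% over all protein-coding genes. RUNX1 had 11 lower tiles of 26 and none higher, and CBFA2T3 had 11 lower and 3 higher of 79. The pair of adjoining RUNX1 tiles upstream of P1, about 140 kb upstream of RUNX1-212 (chr21:36577453-36577706), was unmethylated in SKNO-1, at 0 and 0.0210. In SKNO1-siAE the pair was at 0.494 and 0.391. Among the 6 higher tiles, the difference was largest in RUNX2, in a tile 186 kb downstream of P2 (chr6:45576329-45576389, 5 sites), at 0.957 and 0.133.

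The RUNX proteins bind a short motif that can hold a CpG, as TGCGGT, or none, as TGTGGT. In the member loci, 28 shared sites lay in TGCGGT on either strand, with mean levels of 0.906 in SKNO-1 and 0.950 in SKNO1-siAE, and the 4046 other sites were at 0.635 and 0.703. Of the 28, 16 were in CBFA2T3, and most lay outside the promoter windows. The other sites include those of the windows, so the 28 and the 4046 are unlike sets. A single motif site was called, lower in SKNO-1, in CBFA2T2 at position 32078768 (chromosome 20), with 17 methylated of 55 reads against 67 of 81. TGCGGT was in 38.2% and TGTGGT in 62.8% of the promoter windows of 2001 bp around 18878 MANE Select starts. Among the windows called lower, RUNX1 P1 (2075 bp) held 0 and 6 matches, and CBFA2T3-209 (2647 bp) 3 and 0. Among those called higher, CBFA2T3-201 (2128 bp) held 0 of either, and RUNX1T1-229 (3813 bp) 0 and 2.

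The promoters of 31 genes whose proteins bind or work with core binding factor or the ETO proteins were read in the same way, each by its window with the most shared sites. Of these, 5 were lower and 2 higher in SKNO-1, where 14.1% and 3.03% of protein-coding genes were when read so. The share called lower was thus near that of protein-coding genes. The median difference of the list was −0.00125. Over all windows of all genes, an unlike set that is not limited to the best-covered window of each gene, it was −0.0144. The widest differences were in LMO2 (0.148 in SKNO-1 and 0.917 in SKNO1-siAE, 69 sites) and TCF4 (0.763 and 0.0161, 80 sites). LMO2 bridges the DNA-binding proteins of a blood stem cell complex, and TCF4 is an E protein that pairs with basic helix-loop-helix factors. TAL1, a basic helix-loop-helix factor of the same complex as LMO2, was at 0.249 and 0.716 (148 sites), and TCF12, the E protein HEB, at 0.000663 and 0.368 (116 sites). FLI1, an ETS factor, was at 0.225 and 0.531 (115 sites), and the related ERG at 0.587 and 0.876 (46 sites). BMI1, a Polycomb protein, was the other gene called higher, at 0.514 and 0.117 (96 sites). LYL1 (0 in both lines), LDB1 (0.0172 and 0.0453) and TCF3 (0.0833 and 0.123) of the same list were not called. GATA2, at 0.516 and 0.689, was not called either. Among the corepressors and histone deacetylases that ETO proteins recruit, 3 examples were not called: HDAC1 was at 0.00950 and 0.00788, SIN3A at 0.00392 and 0.00172, and NCOR1 at 0 and 0.0918.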

How the data were processed

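MCC-Seq data of SKNO-1 and SKNO1-siAE, 1 library each, were used. The authors captured bisulfite-converted DNA (SeqCap Epi), sequenced paired ends, removed adapters, trimmed reads with a Perl script (cutadapt 1.4.2 is also named in the submitters' processing notes), used BSMAP 2.73 for alignment to hg19, and deposited counts of methylated and unmethylated reads per cytosine and strand. Every deposited site had at least 5 reads, so sites of lower depth were not analysed here, and capture limits which sites are seen. The deposited tables held 4713346 sites in SKNO-1 and 4694016 in SKNO1-siAE.

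From these counts, levels were computed where both libraries had 5 reads or more. Windows ran from 1500 bp upstream to 500 bp downstream of every GENCODE v44 start, lifted to hg19, and overlapping windows of a gene were joined. P1 and P2 of each RUNX gene were the windows with the most coding starts whose protein begins with MAS or MRI. Other windows carry the name of the MANE Select transcript or else of the most upstream coding one, or, where no start was coding (as at RUNX1T1-230, RUNX1T1-235 and CBFA2T3-208), of the most upstream transcript. The gene body is the span of the gene outside its windows. Windows, bodies, tiles and flanks were called, with no test, at a mean difference of at least 0.2 over at least 5 sites. The reads of each shared site entered a 2-sided Fisher's exact test, all p-values were adjusted by the Benjamini-Hochberg method, and a site was called where the adjusted p was below 0.05 and the levels differed by 0.2 or more. A region was a run of 5 or more sites with gaps of up to 300 bp whose difference, smoothed over 5 sites, kept 1 sign and a size of 0.2, and which passed a Mann-Whitney U test after a Bonferroni correction for the number of shared sites. That p used a normal approximation on tied levels of dependent sites, served to select regions, and is not printed. The tests compare 2 libraries, not conditions. Scripts ran in Python 3.11.15 with scipy 1.17.1 and numba 0.67.0, and the tests were tried on simulated reads with known changes.

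The 7 genes, the partner list and the marker lists were chosen with earlier results of these data known. Named were all 7 genes and their measured windows, every called region, the site with the smallest p in each called window, and in the partner list the called genes with at most 4 of the widest differences in each direction. ERG, LYL1, LDB1, TCF3, GATA2, NCOR1, HDAC1 and SIN3A, the tiles and the intervals of the bodies were named after their values were seen.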

Additional observations from a re-analysis of the deposited data

How the results depend on the processing

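No paired analysis was possible because each line has 1 library. Leaving out a library was not possible either, and the spread between replicates is unknown. Depth limits single sites, with a median of 16 and 15 reads, and neighbouring sites often share a few molecules.

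Of 130 window values under alternatives, 102 moved by under 0.05 and 12 crossed the size of a call, and no called window changed sign. RUNX1 P1 and CBFA2T3-209 stayed past 0.2 in size under each alternative of site, window and depth, and RUNX1 P1 moved from −0.248 to −0.419 with the window ended at the start. RUNX1T1-229 lost its call with pooled reads (0.104) and with the window ended at the start (0.0619), and CBFA2T3-201 with sites whose depths were within 25% of each other (0.173). Among windows not called, RUNX1T1-213, RUNX1T1-234, RUNX1T1-235 and CBFA2T3-211 passed 0.2 under 2, 4, 2 and 1 alternatives. The sign of RUNX1T1-220 turned with pooled reads and with like depths, and CBFA2T3-203 went from 0.0220 to −0.100 over 5 sites of like depth. CBFA2T3-211, not called at 0.0695, was −0.176 with pooled reads and 0.204 with like depths. The median window difference, −0.00595, was −0.0182 with merged strands, −0.0191 with each library's own sites and −0.0448 with like depths. The median body difference, −0.0392, was −0.0606 with merged strands and −0.0538 with own sites.

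Windows called higher fell from 2 to 1 with windows ended at the start, at a difference of 0.3 and, an alternative chosen after seeing the data, with at least 20 sites. Those called lower rose from 2 to 4 with windows ended at the start and fell to 1 at a difference of 0.3. With at least 10 reads, 82 member sites were higher and 274 lower, of 2273, and with Bonferroni adjustment 14 and 92. The shares of all shared sites called under these settings were not counted, so these counts cannot be set against the genome. Regions called higher went from 1 to 0 with at least 10 reads and with no smoothing, which left 3 of the 5 lower. Counts from the partner list stayed within 1.5 times under each alternative, the MANE Select window included, which was chosen after seeing the data. The causes were not tested.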

Other observations

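The member window with the widest difference, CBFA2T3-209, was compared with the windows of other protein-coding genes with at least 20 shared sites by Euclidean distance over the 2 levels. The 3 nearest were those of DNAH8, an axonemal dynein heavy chain, at 0.181 in SKNO-1 and 0.953 in SKNO1-siAE (43 sites), PRDM8, a PR domain protein, at 0.170 and 0.955 (90 sites), and RCN1, a calcium-binding protein of the endoplasmic reticulum, at 0.175 and 0.943 (111 sites). Likeness in these 2 levels describes 2 libraries only.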
